A study of Mus musculus with 6 samples.

Results

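Chemokines are small secreted proteins that steer the movement of leukocytes, and chemokine receptors are the G protein-coupled receptors on which they act. The genes described here are those whose mouse symbol is Ccl, Cxcl, Ccr or Cxcr followed by a number, together with Cx3cl1, Cx3cr1, Xcl1, Xcr1, Ackr1, Ackr2, Ackr3 and Ackr4. The rule found 64 genes among the 27179 in the count files: 41 ligands, 19 receptors and 4 atypical receptors. It uses names only and no measured value.

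RNA-seq counts were available for 6 livers of C57BL/6 mice, 3 labelled wild type and 3 labelled Mettl3-deficient. Mettl3 is the catalytic subunit of the enzyme that writes N6-methyladenosine on RNA. The sources used here do not give how or in which cells Mettl3 was made deficient, nor the sex and age of the mice. The labels do not say that each liver came from another animal, and p-values measure only the spread between these 6 samples.

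Ligands of the CC and CXC families are named for the spacing of their first cysteines. Injured hepatocytes, resident macrophages, endothelial cells and stellate cells can all make them in the liver. Inflammatory ligands such as Ccl2 and Cxcl1 draw monocytes and neutrophils, and homeostatic ligands such as Cxcl12 hold or place cells in resting tissue. Atypical receptors bind chemokines without G protein signalling and remove or present them. Transcription of many inflammatory chemokine genes is switched on through NF-kB, interferon and AP-1 factors.

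Library totals ran from 31960205 to 36025772 counts. Levels below are CPM, counts per 1000000 counts of the library, with library totals adjusted by TMM factors, which correct for differences in library composition. Mettl3 itself fell from 13.2 ± 1.09 to 5.83 ± 0.836 CPM (SD, n = 3 per group; edgeR adjusted p = 0.00797), without overlap between the groups. Hepatocyte markers were abundant in every library, with 6 markers summing to 131977 CPM or more in wild-type livers and to between 43369 and 71775 CPM in Mettl3-deficient livers. Wild type replicate 1 and Mettl3-deficient replicates 1 and 2 held 6514, 4757 and 5036 counts of Y-linked genes and the other 3 libraries held 6 to 11, so each group held livers of at least 2 animals, and the groups differ in the share of such libraries. Without TMM factors, scaling by library size alone shifted the log2 fold changes as a whole, and their median over all tested genes went from 0.01 to 0.49.

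The promoters of 4 CXC ligands of chromosome 5 are shown first, because these genes carry the same type of NF-kB sequence and only Cxcl1 among them was called. RefSeq promoters (GRCm38.p6) were matched for 47 of the 64 members, with 54 entries of 300 bases, from 250 before to 50 after the start of the gene. Members without an entry included Ccl2, Ccl4, Ccl5, Ccl7, Ccl11, Ccl19-ps1, Ccl21c, Ccl24, Ccl26, Ccr7, Ccr10, Cxcl5, Cxcl11, Cxcl16, Cxcl17 and Cxcr5. Each line gives 80 bases, 5′ to 3′ on the strand of the gene, with the match to GGGANNTTCC on either strand in capitals. Cxcl1, Cxcl2 and Cxcl3 are on the plus strand at chr5:90891125-90891204, chr5:90903779-90903858 and chr5:90785981-90786060, from 120 to 41 bases before the start. Cxcl10 is on the minus strand at chr5:92349010-92349089, from 200 to 121 bases before the start.
Cxcl1: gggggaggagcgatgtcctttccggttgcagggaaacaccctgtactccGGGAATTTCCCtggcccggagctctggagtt
Cxcl2: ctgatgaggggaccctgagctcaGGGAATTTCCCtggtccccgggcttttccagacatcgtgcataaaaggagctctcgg
Cxcl3: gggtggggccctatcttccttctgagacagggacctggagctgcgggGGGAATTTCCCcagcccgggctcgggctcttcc
Cxcl10: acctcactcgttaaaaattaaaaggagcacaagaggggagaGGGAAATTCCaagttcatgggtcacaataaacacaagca

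In Cxcl1, Cxcl2 and Cxcl3 the capitals join a match on each strand, offset by 1 base, and the first base of the match lay 71, 97 and 73 bases before the start. The motif was found in 6 of 54 member entries (11.1%; Cxcl1, Cxcl2, Cxcl3, Cxcl10, Ccl1 and Ccr3), against 1.47% of the 32851 promoters in the table. Among 1081 pairs of members, the longest exact run shared by the 120 bases before both starts had a median of 7 bases, and 5 pairs shared 12 or more. Cxcl1 and Cxcl2 shared 14 bases, GGGAATTTCCCTGG, which hold the motif. A match is a description of letters and not a bound site.

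Ccl6 and Ccl9, neighbours on chromosome 11, were another of the 5 pairs, and Ccl6 rose while Ccl9 had lower values and was not called. They shared the 13 bases in capitals below, from 80 to 1 bases before each start, both on the minus strand, at chr11:83593088-83593167 for Ccl6 and chr11:83578637-83578716 for Ccl9.
Ccl6: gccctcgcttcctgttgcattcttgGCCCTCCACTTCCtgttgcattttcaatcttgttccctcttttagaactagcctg
Ccl9: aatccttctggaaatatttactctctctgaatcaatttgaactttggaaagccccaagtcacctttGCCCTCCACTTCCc

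Of the 64 members, 33 passed the filter on low counts and were tested. The calls covered the monocyte ligand Ccl2, its receptor Ccr2, the fractalkine receptor Cx3cr1 and the ligands Ccl6 and Ccl25, which rose in Mettl3-deficient livers, and Cxcl12, Cxcl1 and Ccl27a, which fell. These 8 called genes were 24.2% of the tested members, against 23.8% of the 14380 genes tested in all (edgeR quasi-likelihood test, adjusted p under 0.05). Over all tested genes the members were thus called about as often as the rest. Among genes with a mean of 1 CPM or more over the 6 libraries, 36.4% of 22 members were called, against 25.6% of 12628 tested genes. Higher calls made up 15.2% of tested members and lower calls 9.09%, against 13.3% and 10.5% of all tested genes. The median log2 fold change of tested members was 0.29, against 0.01 for all tested genes. With 1 library left out that median ran from 0.46 to 0.92, over more tested members. Calls fell to 4 of 39 tested members without wild type replicate 2 and 3 of 39 without wild type replicate 3. They fell to 4 of 34 without Mettl3-deficient replicate 1 and 4 of 36 without Mettl3-deficient replicate 2, and were 7 when either other library was removed. The called share of all tested genes fell too, from 23.8% to 9.64%, 10.4%, 9.41% and 12.7% in the same order of removal. With library size alone 10 members were called higher and 1 lower, so higher calls rose from 62.5% to 90.9% of member calls, and the median was 0.77. Over all tested genes higher calls likewise went from 55.7% to 89% of calls, and the median from 0.01 to 0.49, so this shift was not particular to the members.

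**Figure D1:**
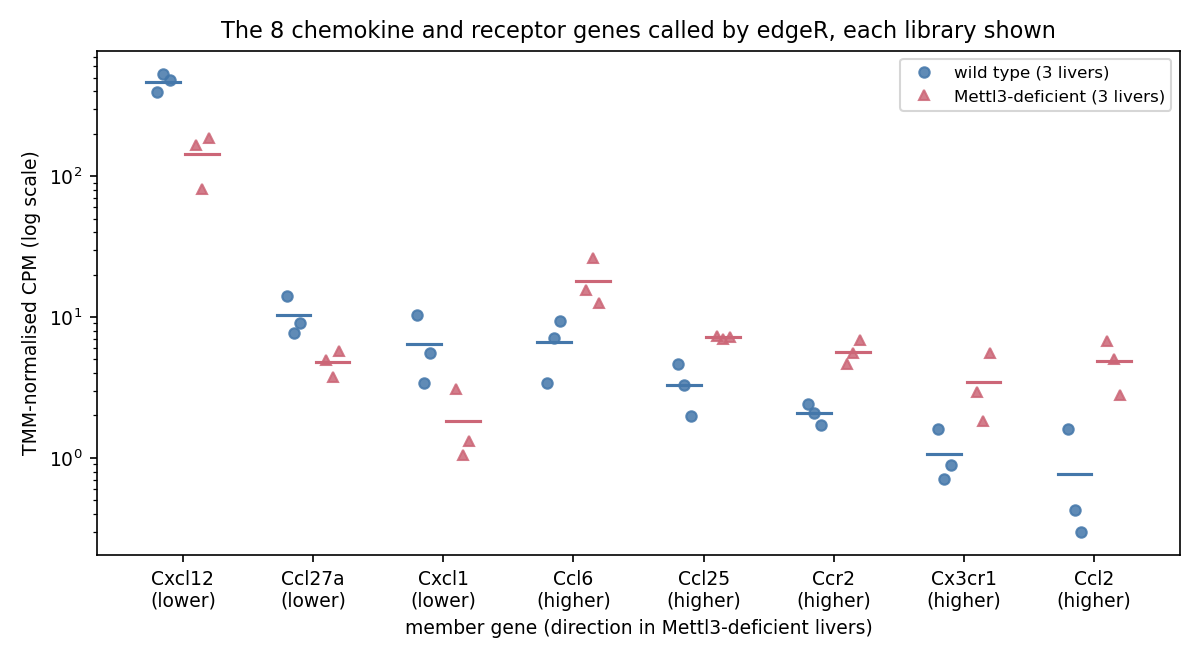
Levels of the 8 called members, in TMM-normalised CPM on a log axis, with 1 point per liver and a bar at the mean of each group of 3. The points of the 2 groups do not overlap for any of the 8 genes, and the levels run from 0.296 CPM for Ccl2 in wild type replicate 3 to 533 CPM for Cxcl12 in wild type replicate 2.

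Levels of different genes can be set side by side only per length, here as CPM per kb of exon. Exon lengths came from GENCODE vM21 for 32 of the 33 tested members, and the models used for counting may differ from these. Ligands had a median of 1.48 CPM per kb in wild-type livers (n = 17), receptors one of 0.214 (n = 11) and atypical receptors one of 0.579 (n = 4). Cxcl12 led in wild-type livers with 57.4 ± 8.43 CPM per kb (SD, n = 3), followed by Ccl9 with 39.0 ± 3.96. The next level, that of Ccl27a, was 4.32 ± 1.41 CPM per kb, and Ccl27a, Cxcl9, Ccl6, Cxcl1 and Cxcl16 were within their spread of each other in wild-type livers. In Mettl3-deficient livers Ccl9 and Cxcl12 had 21.0 ± 8.39 and 17.6 ± 6.88 CPM per kb, which did not differ beyond their spread, and Ccl6 and Ccl2 came next with 10.1 ± 3.99 and 4.27 ± 1.74.

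**Figure D2:**
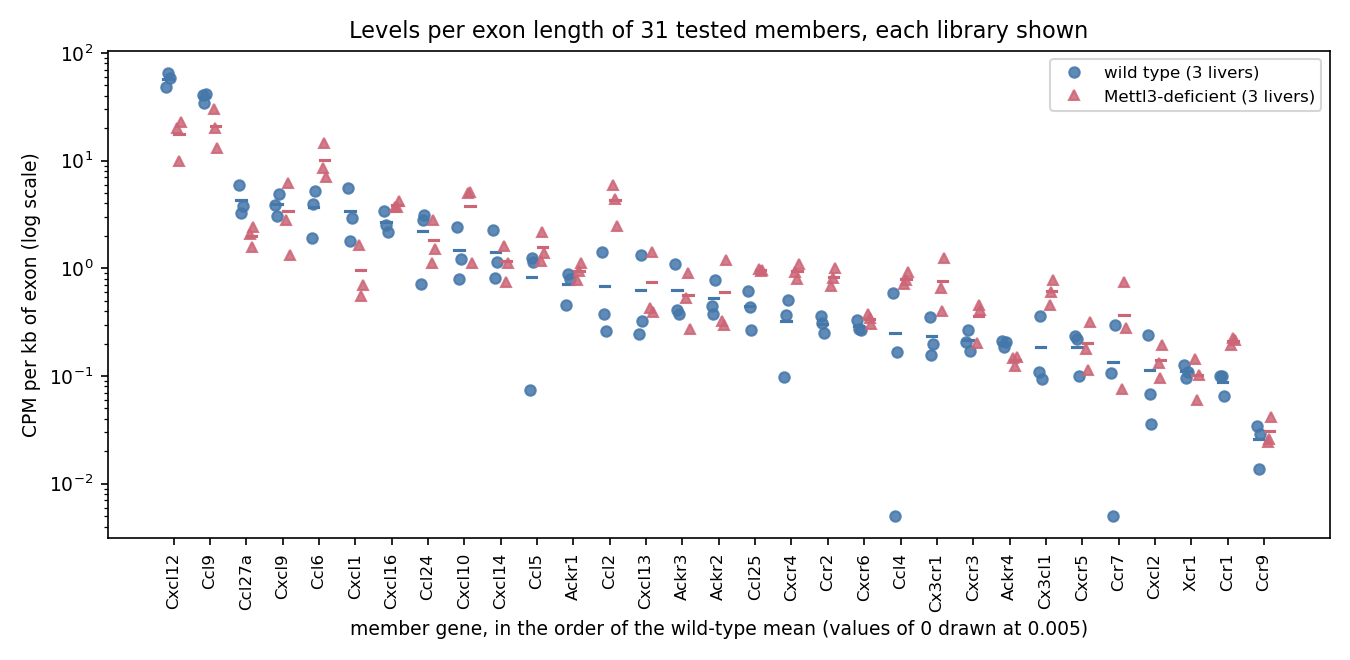
Levels per exon length (CPM per kb, log axis) of 31 tested members in each liver, ordered by the wild-type mean, with bars at group means. The means of Cxcl12 and Ccl9 stand above those of the other genes in both groups, and the wild-type mean of every receptor shown lies below 1 CPM per kb.

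Cxcl12, the ligand of Cxcr4 and of the scavenger Ackr3, fell in Mettl3-deficient livers and had the highest level per length of the called members. Cxcl12 (Entrez 20315, chromosome 6, 117168535 to 117181368, GRCm38) measured 396, 533 and 478 CPM in wild-type livers and 165, 80.5 and 187 CPM in Mettl3-deficient livers. Every Mettl3-deficient value lay below every wild-type value, and Mettl3-deficient replicate 2 was the lowest. The log2 fold change of Cxcl12 was -1.70 ± 0.33 (SE; edgeR adjusted p = 0.0125), a 3.25-fold difference. The call of Cxcl12 held whichever library was removed, with log2 fold changes between -1.93 and -1.41. In bulk liver RNA, fewer cells of a type and less RNA per cell cannot be told apart.

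The genes for the receptors of Cxcl12 were not called. Cxcr4, a receptor of leukocytes and of some endothelial cells, measured 0.178, 0.672 and 0.924 CPM in wild-type livers and 1.69, 1.44 and 1.98 CPM in Mettl3-deficient livers. Its groups did not overlap, but its log2 fold change of 1.52 ± 0.56 was not called (edgeR adjusted p = 0.0855). It was called with DESeq2 (adjusted p = 0.0344), with library size alone (edgeR adjusted p = 0.0231) and with a covariate for Y-linked counts (edgeR adjusted p = 0.0444). Ackr3 had overlapping groups, at 3.66, 1.38 and 1.26 against 1.76, 3.03 and 0.912 CPM.

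The receptor gene Ccr2 and its ligand gene Ccl2 rose in Mettl3-deficient livers. CCR2 is the receptor by which inflammatory monocytes leave the marrow and enter tissue. Ccl2, Ccl7, Ccl8 and Ccl12 were listed here as genes of its ligands, and the receptor use of mouse Ccl8 was not examined. Ccr2 (Entrez 12772, chromosome 9, 124101918 to 124109140) measured 2.42, 2.09 and 1.70 CPM in wild-type livers and 4.64, 5.54 and 6.81 CPM in Mettl3-deficient livers. The lowest Mettl3-deficient value stood above the highest wild-type value, with a log2 fold change of 1.45 ± 0.28 (SE; edgeR adjusted p = 0.012). The call of Ccr2 held under all 16 alternatives, those without 1 library included.

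Ccl2 (Entrez 20296, chromosome 11, 82035577 to 82037452) measured 1.60, 0.424 and 0.296 CPM in wild-type livers and 6.75, 5.03 and 2.81 CPM in Mettl3-deficient livers. Both groups were spread widely, wild type replicate 1 being the highest of its group and Mettl3-deficient replicate 3 the lowest of its own. The log2 fold change of Ccl2 was 2.65 ± 0.65 (edgeR adjusted p = 0.0245), the largest among called members. Its call was lost without Mettl3-deficient replicate 1 or 2 or wild type replicate 2 or 3 (highest edgeR adjusted p 0.0845), and the log2 fold change ran from 2.26 to 3.74 over the 6 fits.

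The other genes listed as CCR2 ligands had too few counts to be tested. Ccl7 had 2, 0 and 0 counts in wild-type livers and 42, 45 and 7 in Mettl3-deficient livers, a ratio of 31.4 after scaling, with an exact binomial 95% interval of 8.46 to 263 that covers counting error only. Without a filter on low counts Ccl7 was called (log2 fold change 4.77, edgeR adjusted p = 0.0199). Ccl12 had 0 counts in wild-type livers and 4 in each Mettl3-deficient liver. That is 2.67-fold higher if the wild-type group as a whole is set at 3 counts, the limit that a count of 0 allows. This value takes no account of error in the Mettl3-deficient counts, and Ccl12 was not called without a filter (edgeR adjusted p = 0.135). Ccl8 had 2 counts in each group. Between 70.3% and 73.7% of the genes with 1 to 20 counts in a library had an even count, so a count of 2 need not stand for 2 independent molecules, and such intervals are too narrow if reads were counted by mate.

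Of fractalkine and its receptor, the receptor was called higher. Fractalkine, encoded by Cx3cl1, is a membrane-bound ligand of endothelial and epithelial cells, and Cx3cr1 marks patrolling monocytes and some tissue macrophages. Cx3cr1 (Entrez 13051, chromosome 9, 120048683 to 120068296) measured 1.60, 0.707 and 0.887 CPM in wild-type livers and 2.93, 1.82 and 5.57 CPM in Mettl3-deficient livers. The groups did not overlap, though Mettl3-deficient replicate 2 stood close to wild type replicate 1.

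The log2 fold change of Cx3cr1 was 1.69 ± 0.51 (SE; edgeR adjusted p = 0.0478). Its call was lost without Mettl3-deficient replicate 1 or 3 or wild type replicate 2 or 3 (highest edgeR adjusted p 0.141; log2 fold change 1.15 without Mettl3-deficient replicate 3), with limma-voom (adjusted p = 0.0901) and with the Y-linked covariate (edgeR adjusted p = 0.0647). With the replicate number as a block its edgeR adjusted p was 0.0558. The ratio of Cx3cr1 means was 1.48 among libraries with Y-linked counts and 6.99 among those without. Each ratio rests on a lone library on one side, wild type replicate 1 among those with Y-linked counts and Mettl3-deficient replicate 3 among those without. Cx3cl1 measured 0.426, 1.41 and 0.370 CPM in wild-type livers and 1.79, 2.39 and 3.07 CPM in Mettl3-deficient livers. Its groups did not overlap, and its log2 fold change of 1.70 ± 0.56 was not called (edgeR adjusted p = 0.061), but it was called with DESeq2 (adjusted p = 0.0148), limma-voom (adjusted p = 0.0422), library size alone (edgeR adjusted p = 0.0165), the Y-linked covariate (edgeR adjusted p = 0.0484) and without wild type replicate 2 (edgeR adjusted p = 0.028).

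Other inflammatory CC ligands, which act on monocytes, eosinophils and T cells, differed among themselves. Ccl6, a rodent chemokine of macrophages, rose from 3.41, 7.11 and 9.35 CPM in wild-type livers to 15.5, 26.2 and 12.6 CPM in Mettl3-deficient livers. Its groups did not overlap (log2 fold change 1.45 ± 0.41, edgeR adjusted p = 0.0374). The call of Ccl6 was lost without Mettl3-deficient replicate 1 or 2 or wild type replicate 1 or 2 (highest edgeR adjusted p 0.119, log2 fold change 1.08 to 1.78 over the 6 fits) and with the Y-linked covariate (edgeR adjusted p = 0.0755). Among libraries with Y-linked counts the ratio of Ccl6 means was 6.11, and among those without it was 1.53, with the same lone libraries as for Cx3cr1.

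Ccl9, the CC ligand with the highest level per length in both groups, had lower values in Mettl3-deficient livers and was not called. It measured 125, 105 and 127 CPM in wild-type livers and 90.9, 60.8 and 40.1 CPM in Mettl3-deficient livers, again without overlap. The log2 fold change of Ccl9 was -0.89 ± 0.28 (edgeR adjusted p = 0.0549). It was called with DESeq2 (adjusted p = 0.0155), with the Y-linked covariate (edgeR adjusted p = 0.0283), with the replicate block (edgeR adjusted p = 0.0452), without a filter on low counts (edgeR adjusted p = 0.0498) and without Mettl3-deficient replicate 1 (edgeR adjusted p = 0.034). Ccl6 and Ccl9 are the neighbours whose upstream sequence is shown above.

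The remaining ligands of this group were not called. Ccl5, made by T and NK cells, had 0.0710 CPM in wild type replicate 1 and 1.11 to 2.10 CPM in the other 5 libraries. Ccl4 had 0 to 24 counts per library (log2 fold change 1.64 ± 0.90, edgeR adjusted p = 0.213), without overlap between the groups, and its span overlaps that of Ccl3 by 755 bases, so reads there are uncertain. Ccl24, an eosinophil attractant made by macrophages, had overlapping groups (log2 fold change -0.28 ± 0.57). Ccl3, Ccl11 and Ccl26 were not tested, with 49, 6 and 4 counts in all.

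The CXCR2 ligands, which draw neutrophils, did not move as a group. Cxcl1 (Entrez 14825, chromosome 5, 90891245 to 90893121) fell from 10.3, 3.39 and 5.51 CPM in wild-type livers to 3.08, 1.04 and 1.32 CPM in Mettl3-deficient livers. The groups were close, wild type replicate 2 standing just above Mettl3-deficient replicate 1, and the log2 fold change was -1.82 ± 0.54 (edgeR adjusted p = 0.0446). The call of Cxcl1 was lost when any 1 wild-type library, or Mettl3-deficient replicate 2 or 3, was removed (highest edgeR adjusted p 0.127; log2 fold change -1.30 without wild type replicate 1 and -2.44 without Mettl3-deficient replicate 1). Library size alone also ended it (edgeR adjusted p = 0.0754).

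Cxcl2, with the same capital letters in its promoter, was low in both groups, at 0.497, 0.141 and 0.0739 CPM in wild-type livers and 0.273, 0.199 and 0.405 CPM in Mettl3-deficient livers. Its groups overlapped (log2 fold change 0.29, with a 95% interval of -1.49 to 2.06). Cxcl3 had 2 counts in all. Cxcl5 had 2, 0 and 0 counts in wild-type livers and 21, 4 and 32 in Mettl3-deficient livers, a ratio of 19.0 (exact binomial 95% interval 5.04 to 161, counting error only), and was not called when the filter was removed (edgeR adjusted p = 0.0527). Cxcr2, the receptor on neutrophils, had 2, 2 and 8 counts against 22, 16 and 7 and was not tested.

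Of the CXCR3 ligands, interferon-induced attractants of activated T cells, none was called. Cxcl10 measured 5.47, 1.80 and 2.74 CPM in wild-type livers and 11.3, 11.6 and 2.53 CPM in Mettl3-deficient livers. Mettl3-deficient replicate 3 lay within the wild-type range, and without it Cxcl10 was called (log2 fold change 1.78, edgeR adjusted p = 0.0311), against 1.34 ± 0.62 with all libraries (edgeR adjusted p = 0.148). Cxcl9 ran from 9.19 to 14.6 CPM in wild-type livers and from 4.03 to 18.6 CPM in Mettl3-deficient livers, a wider spread in the second group. Cxcl11, listed by RefSeq as a transcribed pseudogene in this build, went from 5.68, 3.89 and 2.22 CPM to 2.28, 0.974 and 2.76 CPM and was not called (edgeR adjusted p = 0.173). Cxcl10 and Cxcl11 lie within the span of Art3, which had 35 to 94 counts per library. Cxcr3 was not called either (log2 fold change 0.73 ± 0.53).

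Ccl25 and Ccl27a, known as ligands of gut and skin homing, were called in opposite directions. Ccl25 (Entrez 20300, chromosome 8, 4325205 to 4360020), the ligand of Ccr9, measured 4.62, 3.29 and 1.996 CPM in wild-type livers and 7.37, 6.97 and 7.17 CPM in Mettl3-deficient livers. The Mettl3-deficient values lay close together above all wild-type values (log2 fold change 1.12 ± 0.32, edgeR adjusted p = 0.0401). Its call was lost without any 1 library except wild type replicate 1 (highest edgeR adjusted p 0.116), and with the Y-linked covariate (edgeR adjusted p = 0.052). The ratio of Ccl25 means was 1.55 among libraries with Y-linked counts and 2.71 among those without, with the same lone libraries as for Cx3cr1. Ccr9 had means of 0.264 and 0.315 CPM and was not called (log2 fold change 0.25 ± 0.60).

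Ccl27a (Entrez 20301, chromosome 4, 41769467 to 41774225), a ligand of Ccr10, measured 14.1, 7.67 and 9.09 CPM in wild-type livers and 4.92, 3.72 and 5.70 CPM in Mettl3-deficient livers. The groups did not overlap (log2 fold change -1.11 ± 0.30, edgeR adjusted p = 0.0322). Its call was lost without Mettl3-deficient replicate 1 or 2 or wild type replicate 1 or 3 (highest edgeR adjusted p 0.0963), and with library size alone (log2 fold change -0.65, edgeR adjusted p = 0.12). Ccl27b, a near-identical copy that shared a run of 58 bases with Ccl27a before the start, had 7 counts in all, and reads of the pair can be split between them. Ccl28, the other Ccr10 ligand, had 5, 2 and 2 counts against 16, 10 and 14 and was not tested.

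Other ligands gave no calls. Cxcl16, a membrane-bound ligand that acts on Cxcr6 of liver NKT and T cells, measured 10.3, 7.67 and 6.54 CPM in wild-type livers and 11.2, 11.3 and 12.6 CPM in Mettl3-deficient livers. Its groups did not overlap (log2 fold change 0.52 ± 0.22, edgeR adjusted p = 0.117), and it was called without wild type replicate 1 (log2 fold change 0.72, edgeR adjusted p = 0.0348) and with library size alone (log2 fold change 0.99, edgeR adjusted p = 0.0139). Cxcl13, a B cell attractant, and Cxcl14 had log2 fold changes of 0.24 ± 0.79 and -0.29 ± 0.47. Ccl21a, Ccl21b and Ccl21c, near-identical lymphoid ligands of Ccr7, had 0 counts in every library, and reads that fit several copies may not have been counted.

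**Figure D3:**
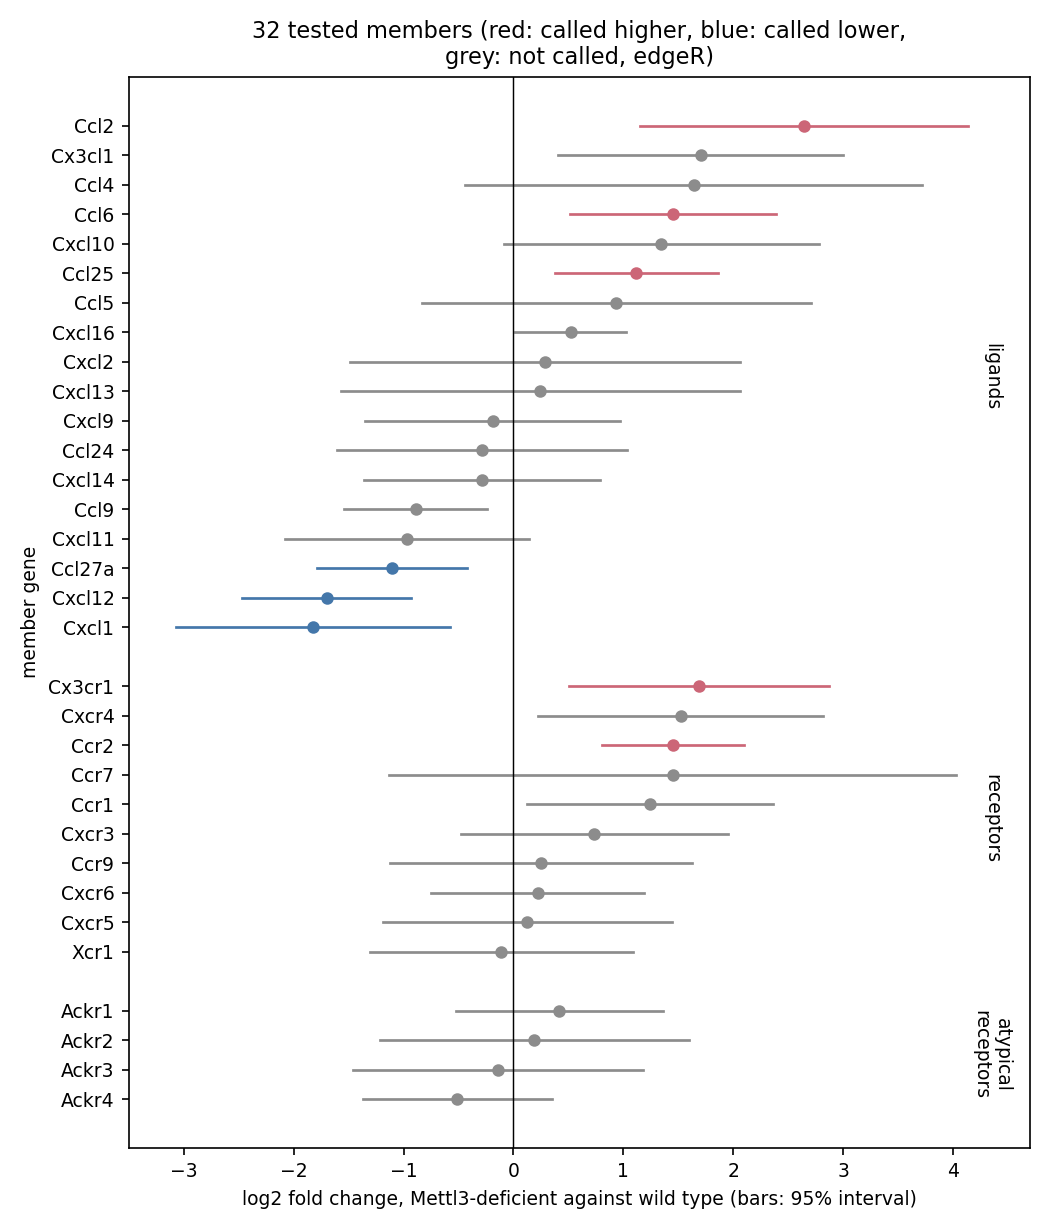
Log2 fold change, Mettl3-deficient against wild type, of 32 tested members, with 95% intervals, grouped into ligands, receptors and atypical receptors. Called genes are coloured. Of the 10 receptors shown, 9 have values above 0, and of the 4 atypical receptors, 2, against 7285 of all 14380 tested genes. Among them Ccr1 passed the filter on low counts only through the Mettl3-deficient livers. With library size alone, where the median of all tested genes is 0.49, Xcr1 (0.34) and Ackr3 (0.35) are above 0 too.

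Positive log2 fold changes were found for 10 of 11 tested receptors, against 7285 of the 14380 genes tested in all. Among these receptors, Ccr1 had 8, 8 and 5 counts in wild-type livers and 22, 29 and 24 in Mettl3-deficient livers. It passed the filter only through the second group, so its direction was tied to the filter. With library size alone Xcr1 was positive as well, but that scaling moved the median of all tested genes to 0.49. Only Ccr2 and Cx3cr1 were called, 18.2% against the 23.8% of all tested genes, and no receptor was called lower. Ccr1, a receptor of monocytes and neutrophils, measured 0.284, 0.283 and 0.185 CPM in wild-type livers and 0.546, 0.642 and 0.608 CPM in Mettl3-deficient livers. Those groups did not overlap, but Ccr1 was not called (log2 fold change 1.24 ± 0.49, edgeR adjusted p = 0.0981). With library size alone it was called (edgeR adjusted p = 0.0294).

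The lymphoid receptors were low. Ccr7, which guides cells to lymph nodes, had 0 to 67 counts per library (log2 fold change 1.45 ± 1.12). Cxcr5 of B cells, Cxcr6 and Xcr1 of cross-presenting dendritic cells had log2 fold changes of 0.13, 0.22 and -0.11, with 95% intervals that reached from -1.31 to 1.44 over the 3 genes. Cxcr6 lies within the span of Fyco1, which had 1126 to 1926 counts per library, and Cxcr5 overlaps Bcl9l by 120 bases.

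None of the 4 atypical receptors was called, and their summed level was 5.84 ± 1.03 CPM in wild-type and 5.89 ± 1.19 CPM in Mettl3-deficient livers (SD, n = 3). Ackr4, a scavenger of Ccl19, Ccl21 and Ccl25, measured 1.14, 0.990 and 1.11 CPM in wild-type livers and 0.794, 0.664 and 0.811 CPM in Mettl3-deficient livers. Those groups did not overlap (log2 fold change -0.51 ± 0.37, edgeR adjusted p = 0.342). Ackr4 rested on 28 to 32 counts per library and lies within the span of Acad11, which had 4668 to 9576. Ackr2, a scavenger of inflammatory CC ligands, measured 3.75 CPM in Mettl3-deficient replicate 3 and 0.930 to 2.44 CPM in the other libraries. Ackr1, an endothelial and red cell receptor that overlaps Cadm3 by 1612 bases, had a log2 fold change of 0.42 ± 0.41.

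In all, the groups did not overlap for 15 of the 33 tested members (45.5%), 10 higher and 5 lower in Mettl3-deficient livers, against 45.7% of all tested genes, so this share was also near the background. Within the libraries with Y-linked counts and within those without, 19 of the 33 differed in the same direction without overlap (57.6%, against 57.9% of all tested genes), and 5 in opposite directions (15.2% against 18%; Ackr2, Ccl24, Ccr9, Cxcl2 and Cxcr5). Both shares were near or below the background, and each set held a lone library of one group. The 31 untested members comprised 6 with 0 counts in every library (Ccl1, Ccl19-ps1, Ccl21a, Ccl21b, Ccl21c and Ccr8), 9 with 1 to 10 counts in all and 16 with 11 to 100. Beyond those already given, Cxcl17 had 0, 3 and 0 counts against 4, 20 and 24. Ccl22, a ligand of regulatory T cells, had 0, 4 and 2 against 20, 6 and 12. Ccl17, another ligand of Ccr4, had 0, 2 and 2 against 0, 10 and 16. Ccl19, a ligand of Ccr7, had 4, 0 and 0 against 1, 16 and 0, and Xcl1, a ligand made by NK and T cells, had 0, 4 and 0 against 0, 20 and 0. Mettl3-deficient replicate 2 was the high library for both. Ccr3, of eosinophils, had 0, 8 and 6 counts against 8, 18 and 2, and Ccr6 had 0, 0 and 4 against 0, 10 and 7. Ccr10, Ccr1l1 and Cxcr1 had at most 8 counts in any library, Cxcl15 had 4 in all, and Ccr4, Ccl20 and Ccl21d had 2, 2 and 1. With the filter removed, Ccl7 was the only one of the 31 called. With 1 library left out, Ccl7 was called without Mettl3-deficient replicate 3 or wild type replicate 1, and Cxcl5 without Mettl3-deficient replicate 2. Neither was called without wild type replicate 2 or 3, nor was Cxcl5 without wild type replicate 1. Both had 2, 0 and 0 counts in wild-type livers, so they could pass the filter only through the Mettl3-deficient livers, where they were higher.

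Many members lie in tandem groups. In the 4 described here, 1 of 6, 4 of 5, 6 of 8 and 2 of 5 genes were tested, in the order below. No group could therefore have been called as a whole. In the group of 6 ligand genes on chromosome 11 that spans 144 kb (82035577 to 82179812), Ccl2 rose, Ccl7 and Ccl12 had more counts in Mettl3-deficient livers, and Ccl11, Ccl8 and Ccl1 had 6, 4 and 0 counts in all. In the next group on that chromosome, 139 kb (83525778 to 83664683), Ccl6 rose while Ccl9, the gene next to it, had the lower values given above. In a receptor group on chromosome 9, Ccr2 was called and Ccr9, Cxcr6, Xcr1 and Ccr1 were not, though Ccr1 was higher without overlap. Ccr1l1 and Ccr3, which lie between Ccr1 and Ccr2, were not tested. Among the 5 CXC genes within 147 kb on chromosome 5 (90759298 to 90905938), Cxcl1 fell and its neighbour Cxcl2 was not called.

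**Figure D4:**
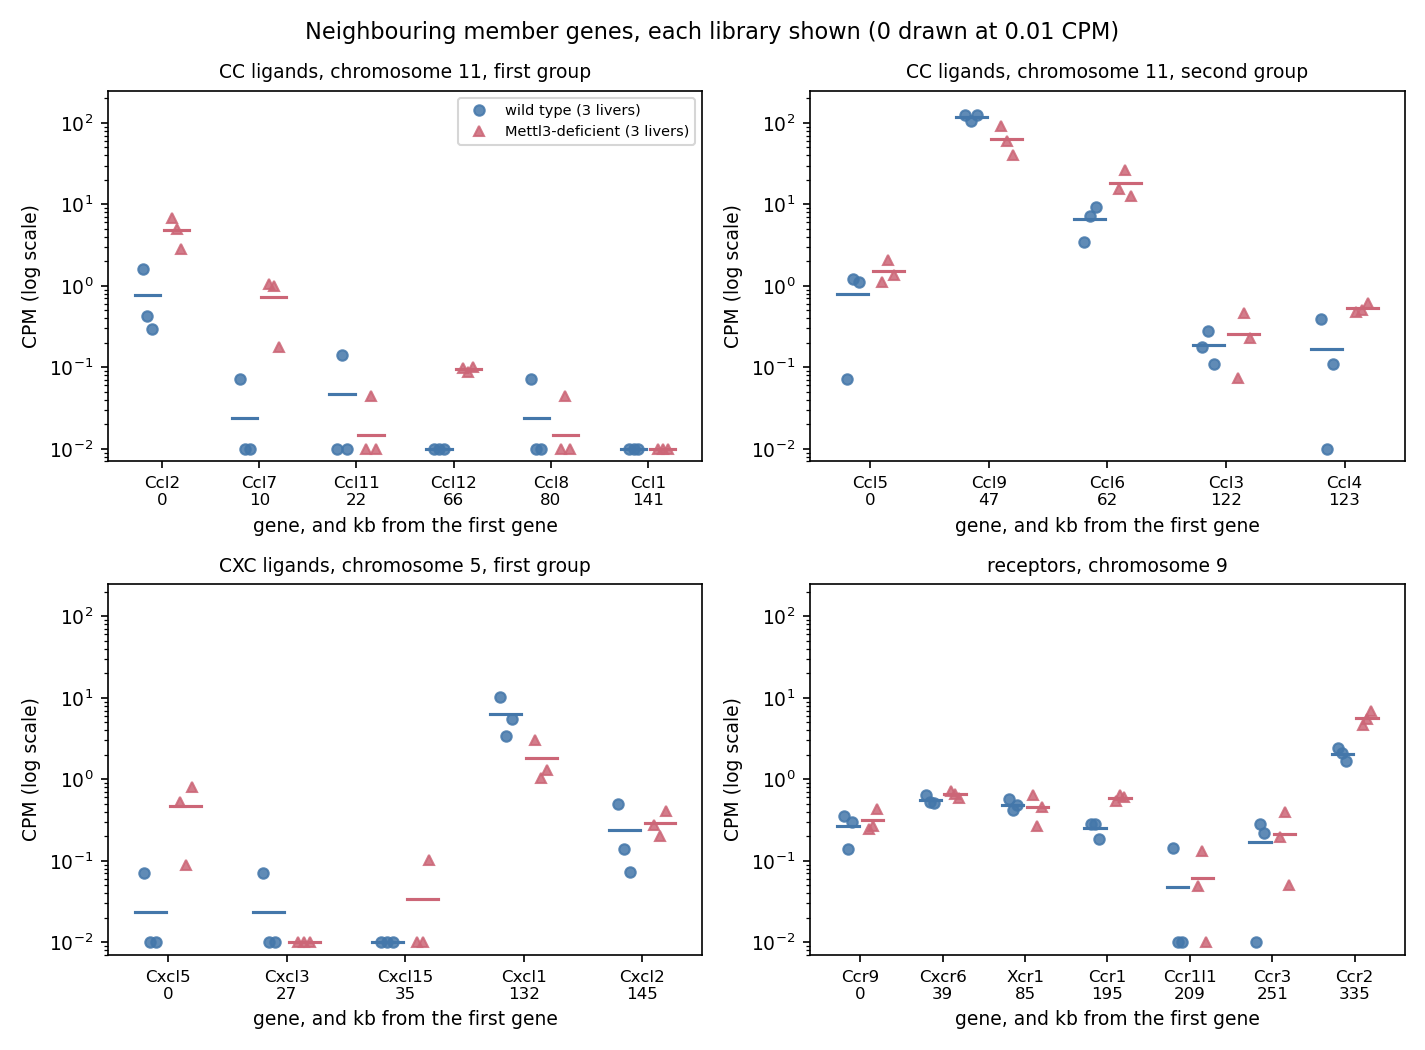
Levels (CPM, log axis, values of 0 drawn at 0.01) of member genes in 4 tandem groups, in chromosomal order with the distance in kb from the first gene. Points are livers and bars are group means. The means of Ccl6 and Ccl9, side by side, differ in opposite directions, and the points of Cxcl2, next to Cxcl1, overlap between the groups.

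Promoter letters other than the NF-kB motif were scanned too, on both strands. The letters TATAAA of the TATA box were found in 15 of 54 member entries (27.8%), against 13.6% of all promoters. Any position in the window was counted. The letters began 27 to 32 bases before the start, on the strand of the gene, only in Cxcr4, Cxcl3, Cxcl15, Ccl12 and Ccl8. The letters TGANTCA, a loose form of the AP-1 site, were in 10 entries of 9 genes (18.5% against 7.81%). The matches of Ccl9 and Ccr1l1 read TGAATCA and TGATTCA, and the other genes had C or G at N. The interferon element GAAANNGAAA was in 3 (5.56% against 3.44%; Cxcl10, Ccl19 and Cxcl14). Of the 5 members that rose, none with an entry held GGGANNTTCC in its window, and of the 3 that fell, Cxcl1 did. The absence of letters from this window says nothing about the factor.

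The letters GGACT, the most frequent sequence context of N6-methyladenosine, were counted in the longest protein-coding GENCODE transcript of each tested gene. Tested members had a median of 1.13 per kb (n = 32) and all tested genes 1.05 per kb (n = 13279). Ccl27a held 4 in 841 bases, Cxcl12 held 10 in 5627 bases, Ccr2 held 5 in 5728 bases and Ccl25 held 0 in 1058 bases. The medians were 2.10 per kb for the 3 members that fell and 1.11 per kb for the 5 that rose, which is a description of few genes. Methylation itself was not measured in these libraries.

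Other genes of the pathway lie outside the naming rule. Of 34 genes that carry receptor signals (G proteins, arrestins, kinases and guanine exchange factors), all tested, 5 rose and 0 fell, with a median log2 fold change of 0.39. Those that rose were Grk3, a receptor kinase (from 11.2 ± 3.63 to 28.0 ± 2.65 CPM), Rgs2 (2.58-fold), Ptk2, a focal adhesion kinase (1.69-fold), Prex1 (1.79-fold) and Elmo1 (2.40-fold). Higher calls were 14.7% of this list, against 13.3% of all tested genes. Of 12 related genes outside the rule, Ccrl2, a non-signalling receptor, rose from 1.42 ± 0.344 to 3.37 ± 0.519 CPM, and Sdc4, Rarres2 and Dpp4 fell (8.33% higher and 25% lower, against 13.3% and 10.5% of all tested genes). Rarres2 encodes chemerin, a leukocyte attractant of another family, and went from 295 ± 53.8 to 121 ± 45.5 CPM, and Dpp4, a protease that trims chemokines, fell 1.62-fold.

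Another list held 27 genes that induce or restrain chemokine genes, among them receptors, cytokines, transcription factors and the inhibitors Nfkbia and Zfp36. Of the 25 tested, 9 rose (36%) and 3 fell (12%), against 13.3% and 10.5% of all tested genes, with a median log2 fold change of 0.38. The NF-kB subunit gene Relb rose from 1.98 ± 0.192 to 6.21 ± 0.849 CPM (edgeR adjusted p = 0.00599) and Nfkb2 2.28-fold, while Nfkbia, an inhibitor of NF-kB, fell from 37.3 ± 9.18 to 20.2 ± 0.761 CPM. Tlr2, a receptor of bacterial lipoproteins, rose 4.34-fold, and Zfp36, which destabilises cytokine messages, fell 2.16-fold. The receptor gene Il1r1 also fell, 2.07-fold (edgeR adjusted p = 0.0253). Tnf, among the 9 that rose, was called on low counts, from 0.0945 ± 0.0818 to 0.679 ± 0.181 CPM. With 4, 4 and 0 counts in wild-type livers it passed the filter only through Mettl3-deficient livers, so its direction was tied to the filter. Il6 had 2 counts or fewer per library and was not tested.

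Markers of leukocytes moved with some of these results. Of 11 monocyte and macrophage markers, all tested, 6 rose and 0 fell (54.5% against 13.3% of all tested genes): Gpnmb, Itgam, Cd14, Lyz2, Ly6c2 and Cd68. Ly6c2, of inflammatory monocytes, went from 0.637 ± 0.215 to 2.79 ± 1.43 CPM, and Itgam from 0.671 ± 0.160 to 2.73 ± 0.262 CPM. The sum of the list without Fn1, which hepatocytes also make and which was left out after its values were seen, ran from 74.1 to 145 CPM in wild-type and from 181 to 273 CPM in Mettl3-deficient livers. With Fn1 it ran from 871 to 1665 CPM and from 930 to 1163 CPM. The part of these markers in the higher levels of Ccr2, Cx3cr1, Ccl2 and Ccl6 was not tested.

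Neutrophil markers summed to 3.57 to 5.21 CPM in wild-type and 7.35 to 11.7 CPM in Mettl3-deficient livers. Of the 4 tested, S100a9 (4.33-fold) and Csf3r (2.22-fold) rose, while Ly6g had 0 counts in every library and the means of Camp and Mpo were under 0.1 CPM in both groups. Elane, not tested, had 12, 2 and 12 counts in wild-type livers against 3, 0 and 0 in Mettl3-deficient livers, and Mmp8 had 8, 0 and 2 against 3, 4 and 4. None of 6 Kupffer cell markers was called, and their sum was 79.0 CPM in wild type replicate 1 against 273 to 554 CPM in the other 5 libraries. Wild type replicate 1 was also the lowest library for Ccl6, Ccl5, Cxcr4 and Ccl24. Of 7 tested T cell markers Cd4 fell 3.70-fold and none was called higher, but the other 6 had log2 fold changes above 0. Cd3d (1.71), Cd3e (1.35) and Cd8a (2.08) were higher without overlap and not called. No NK or B cell marker was called. Lyve1, of sinusoidal endothelium, fell 2.44-fold, the only call among 6 endothelial markers, and no stellate cell marker was called. Itgax rose among 6 dendritic cell markers, Sox9 and Muc1 rose among 6 cholangiocyte markers, and Alb fell 2.90-fold among 6 hepatocyte markers. The part of these markers in the chemokine results was not tested.

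**Figure D5:**
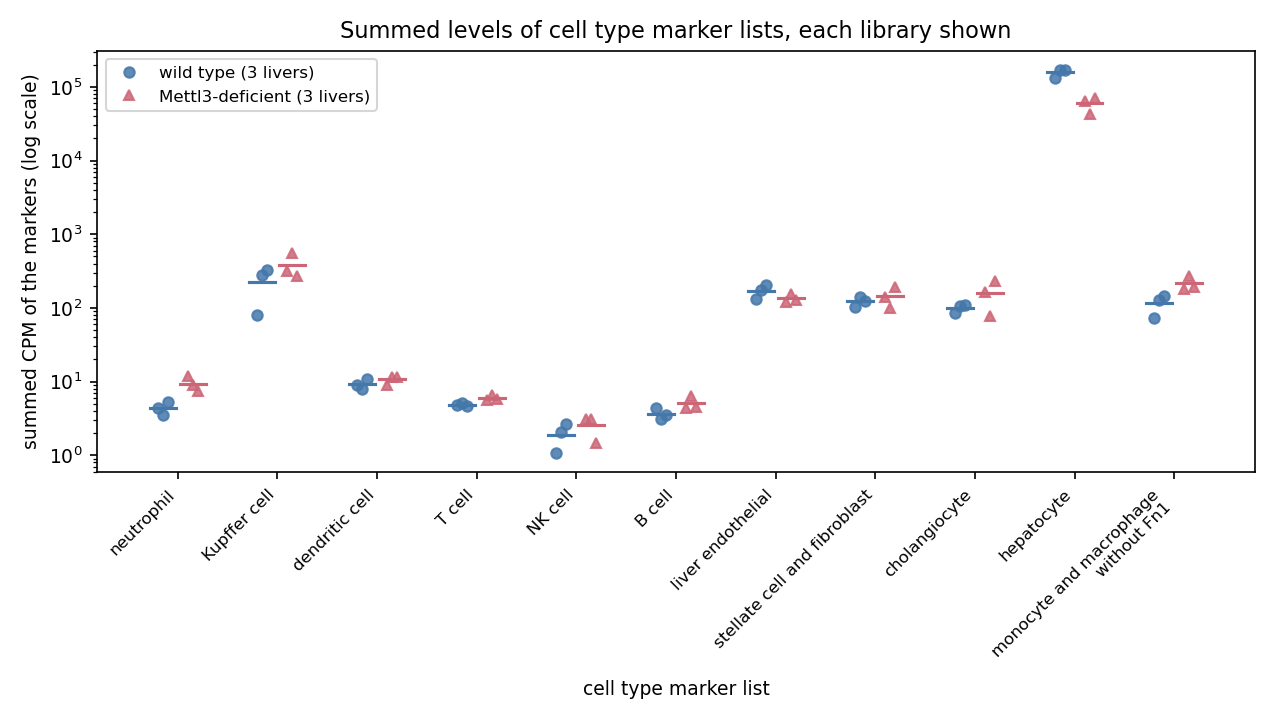
Summed CPM (log axis) of 11 cell type marker lists in each liver, with bars at group means. The monocyte and macrophage list without Fn1 and the neutrophil list are higher in Mettl3-deficient livers without overlap, as is the T cell list, the hepatocyte list is lower without overlap, and wild type replicate 1 stands low for Kupffer cell markers.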

How the data were processed

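The authors deposited unnormalized counts for each gene, keyed by Entrez number, in 1 file per liver. HISAT2, featureCounts and build mm10 are named in the submitters' processing notes. The sources used here give no version, annotation or strand setting. Hence values of overlapping genes are uncertain. Per the labels' protocols, RNA was depleted of ribosomal RNA and libraries were directional. Symbols and positions came from RefSeq (GRCm38.p6, the build of mm10), which matched 25275 of 27179 identifiers.

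Counts were tested with edgeR 4.0.16 in R 4.3.3 (robust quasi-likelihood F test, two-sided, TMM factors, design of intercept and group) after filterByExpr with a minimum count of 10 and total of 15. A call is a p under 0.05 after Benjamini-Hochberg adjustment over all 14380 tested genes. The log2 fold change divided by the square root of F gave its SE, and a t quantile its 95% interval. The fit was tested on simulated data. Every tested member but 1, which is not reported here, is named. Of the other lists, called genes are named by smallest p, up to 4, and any further one was chosen after its values were seen. The members and lists were chosen with earlier results of these data known. Alternatives were RLE, upper-quartile and no factors, DESeq2 1.42.0, limma-voom 3.58.1, other filters, a replicate block, a Y-linked covariate, leaving out the 20 top genes, and leaving out each library.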

Additional observations from a re-analysis of the deposited data

How the results depend on the processing

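RLE and upper-quartile factors and removal of the 20 most abundant genes changed no call or direction of the 33 tested members. Among values of single members under alternatives, 440 kept direction and side of the threshold, 33 lost a call, 18 gained one and 26, all of uncalled genes, changed sign. Members called higher numbered 10 with library size alone and 1 to 6 with 1 library left out. Members called lower numbered 1 with library size alone and 1 to 3 with 1 library left out. The median log2 fold change was 0.77 with library size alone, 0.48 without a filter, 0.47 with CPM of at least 1 in 3 samples, 0.45 with the replicate block, 0.45 with limma-voom and 0.46 to 0.92 with 1 library left out; 58 members were tested without a filter, 22 with the CPM filter and 34 to 39 with 1 library left out. The causes of the other changes were not tested. DESeq2 called 7 members higher and 4 lower, and 4575 genes in all against 3420 with edgeR. Genes called in all fell to 1382 without Mettl3-deficient replicate 1, 1425 without wild type replicate 2, 1542 without wild type replicate 3 and 1859 without Mettl3-deficient replicate 2. They numbered 5405 with library size alone, of which 89% were higher.

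The replicate numbers do not pair the livers by the labels, and deviations of same-numbered libraries correlated at 0.084, -0.017 and 0.034, with the best partner sharing the number for 1 of 3. With the replicate block 4 members were called higher and 4 lower, Cx3cr1 being lost and Ccl9 gained, and 2683 genes in all.

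Signs changed with library size alone for Ackr3 (0.35), Ccl24 (0.23), Cxcl14 (0.16), Cxcl9 (0.32) and Xcr1 (0.34), with the replicate block for Ackr2 (-0.034), with limma-voom for Ackr2 (-0.072) and with the Y-linked covariate for Ccl24 (0.19). With 1 library left out, log2 fold changes ran from -0.77 to 0.57 for Ackr2, -0.65 to 0.53 for Ackr3, -0.74 to 0.0435 for Ccl24, -0.0518 to 0.52 for Ccr9, -0.60 to 1.39 for Cxcl13, -0.59 to 0.23 for Cxcl14, -0.13 to 1.40 for Cxcl2, -0.93 to 0.19 for Cxcl9, -0.35 to 0.42 for Cxcr5 and -0.45 to 0.17 for Xcr1. The filter on low counts set which members were tested, and depth limits the precision of those with few counts.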
